A study of Mus musculus with 3 samples.

Results

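The 9 genes described here encode lysosomal proteases that liver myeloid cells transcribe: the cathepsins Ctsa, Ctsb, Ctsc, Ctsd, Ctsh, Ctsl, Ctss and Ctsz, and legumain, Lgmn. They were taken by name, each has a column in both deposited tables, and they make up 9 of 21550 gene columns in one table and 9 of 22517 in the other. The question was which protease marks which myeloid type. Cells came from mouse liver, were described by the labels as parenchymal and by the study's methods as non-parenchymal cells (NPCs), and were captured on BD Rhapsody, a microwell system that tags each mRNA molecule with a unique molecular identifier (UMI). The first library held wild-type (WT) mice alone and is called WT-only here. Its title reads MCD, the study's methods describe a normal chow diet (NCD), and its table's header names it APAP0h, so the diet of these mice is not certain. The second, the HFHC pool, held WT mice and Chil1-/- mice, which lack the gene the study calls Chi3l1 constitutively, all fed for 16 weeks on HFHC, a diet rich in fat and cholesterol. The deposited table of the pool gives no genotype per cell, and neither the mice's age nor their number per library is in the labels. A further sample holds the sample tags of that pool and has no table of its own.

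Cathepsins are made as inactive precursors, carried to the lysosome and activated there by its acid. Most are papain-like cysteine proteases (Ctsb, Ctsc, Ctsh, Ctsl, Ctss and Ctsz), whereas Ctsd is an aspartic protease and Ctsa a serine carboxypeptidase. Legumain is a cysteine protease of another family that cuts after asparagine and processes the precursors of several cathepsins. In macrophages such enzymes break down engulfed cells, lipoproteins and pathogens, and in antigen-presenting cells they trim the invariant chain and the peptides that load onto MHC class II.

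Many lysosomal genes carry the letters CACGTG in their promoters, the core of the element that the MiT family of transcription factors (Tfeb, Tfe3, Mitf and Tfec) is known to bind. The reference promoters of RefSeq on GRCm38.p6, each reaching from 250 bases before to 50 after a gene's start, were therefore searched for this motif, which reads the same on both strands. Of the 9 genes, 7 had a promoter entry, and Ctsa, Ctsd, Ctsl and Lgmn held the motif while Ctsc, Ctss and Ctsz did not. It occurs in 2349 of all 32851 such promoters (7.15%) and in at least 1 promoter of 2187 of 27025 genes (8.09%), the share that matches a count of genes. Ctsa and Lgmn have 2 promoters each in the table, 1 of which holds it. The copies are shown because these 4 genes include the one that differed most between the libraries and the one that marked a single myeloid type. Capitals mark the motif, and each sequence is given 5′ to 3′ on the gene's strand.
Ctsa, chr2:164833751-164833776, plus strand: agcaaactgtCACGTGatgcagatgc
Ctsa, chr2:164833768-164833793, plus strand: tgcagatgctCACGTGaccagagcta
Ctsd, chr7:142388057-142388077, minus strand: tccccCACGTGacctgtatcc
Ctsd, chr7:142387910-142387935, minus strand: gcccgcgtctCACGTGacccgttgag
Ctsl, chr13:64370741-64370766, minus strand: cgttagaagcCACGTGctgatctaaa
Lgmn, chr12:102439126-102439151, minus strand: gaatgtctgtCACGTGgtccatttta
The Lgmn copy begins 49 bases before the start, the Ctsl copy 236 bases before it and the Ctsd copies 245 and 98 bases before it, counted from the start in the RefSeq table. That start lies inside the gene's range in the annotation given next, so that every copy but the first of Ctsd falls within those ranges. These matches describe the letters only, and no binding was measured.

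The genes lie on 7 chromosomes (GRCm38): Ctsa at chr2:164832873-164841032, Ctsz at chr2:174427493-174439039, Ctss at chr3:95526786-95556403, Ctsc at chr7:88278085-88310888, Ctsd at chr7:142375911-142388038, Ctsh at chr9:90054152-90076089, Lgmn at chr12:102394084-102439813, Ctsl at chr13:64359337-64370890 and Ctsb at chr14:63122462-63145923. All are protein-coding. Ctsd shares 6757 bases with a gene model on the same strand, Gm49369, Ctsl shares 395 with Gm49230 and Ctss shares 557 with the pseudogene Hmgb1-ps5. None of these models has a column in either table. The ranges come from a later GENCODE release than the vM19 used for counting, and whether vM19 held these models was not checked. Only if it did could reads there be split or dropped. Ctsa overlaps Pltp and Neurl2 on the opposite strand, Ctsb overlaps Fdft1 and Ctsz overlaps Nelfcd, and the sources used here do not give whether counting used strand.

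WT-only held 30734 cells and 53720863 UMIs, and the pool 21601 cells and 71981673 UMIs. Cells with 200 to 4000 genes and at most 25% mitochondrial UMIs were kept, 23346 and 19625 of them, with medians of 1322.5 and 1622 UMIs. Cells were clustered without the 9 genes among the genes used, and clusters were named from marker lists, so that every class name below stands for a cluster that is only like that cell type. This gave 2687 Kupffer cells (KCs) in WT-only and 381 in the pool, 100 and 112 monocyte-derived macrophages (MoMFs), 345 and 510 monocytes, 99 and 75 patrolling monocytes, 259 and 154 cDC1, 189 and 172 cDC2, 804 and 325 plasmacytoid dendritic cells (pDCs) and 3144 and 341 neutrophils. Basophils numbered 71 and 18, so that they reached the minimum of 50 cells for ranking in WT-only alone. Their levels are not listed below, but the counts of neighbouring pairs and the highest and lowest classes in WT-only include them. Mature dendritic cells, 32 and 35 cells, missed this minimum in both libraries. Every statement on the highest, lowest or next myeloid class leaves them out. In all, 756 cell indices occurred in both libraries, 507 of them among the kept cells. Hepatocytes were present too, 3408 and 9675 cells, against the methods' description of NPCs. Each group is 1 library, so no test was made, and diet, genotype mix, capture and library cannot be told apart. Intervals are exact 95% intervals that cover counting error only.

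In most classes checked, the marker list of the class's own name summed highest, with exceptions in WT-only MoMFs and pool cDC2. The 10 KC markers summed to 21882 CPM, UMIs scaled to a class total of 1000000, in WT-only KCs and 18834 in pool KCs. MoMFs held 3234 and 5472 CPM of the 10 MoMF markers, but the KC markers stood at 4735 CPM in WT-only MoMFs, above the class's own list, and at 2408 in those of the pool. The MoMF list also stood at 3012 CPM in WT-only monocytes and 3848 in pool monocytes, beside 10886 and 10677 of the monocyte list. With classes set by each cell's own marker UMIs, 46 of 100 and 72 of 112 MoMFs kept their class. So did 255 of 345 and 346 of 510 monocytes, 2645 of 2687 and 358 of 381 KCs, and 141 of 189 and 90 of 172 cDC2. Pool cDC2 held 2741 CPM of the 8 cDC2 markers, below the 4903 CPM of the monocyte list and the 2927 of the MoMF list, whereas WT-only cDC2 held 4351 of their own and 2744 and 1931 of the other lists. Clec4f, a KC lectin, reached 18.4% of its KC level in WT-only MoMFs and 2.95% in pool MoMFs. In the other myeloid classes of at least 50 cells it lay between 0.873% and 2.34% in WT-only and between 0.308% and 0.510% in the pool. Taking KC UMIs out of WT-only MoMFs in proportion to Clec4f, a step chosen after seeing the data, lowered Ctsb from 5781 to 4542 CPM and Lgmn from 856 to 716 CPM.

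The 9 genes together took 2.29% of all UMIs of WT-only KCs and 2.20% of those of pool KCs, 22915 CPM (22835 to 22997) and 22020 CPM (21865 to 22176). MoMFs followed at 17026 and 18594 CPM, monocytes at 8569 and 9146, patrolling monocytes at 8897 and 8251, pDCs at 7874 and 6809, cDC2 at 4647 and 5033, cDC1 at 2120 and 1902 and neutrophils at 999.5 and 1778. The classes thus ranked in the same order in both libraries, from KCs down to neutrophils, apart from monocytes and patrolling monocytes, which changed places. CPM counts molecules and is not scaled to gene length, so levels are compared here between classes for 1 gene and not between genes, except as shares of UMIs.

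**Figure D1:**
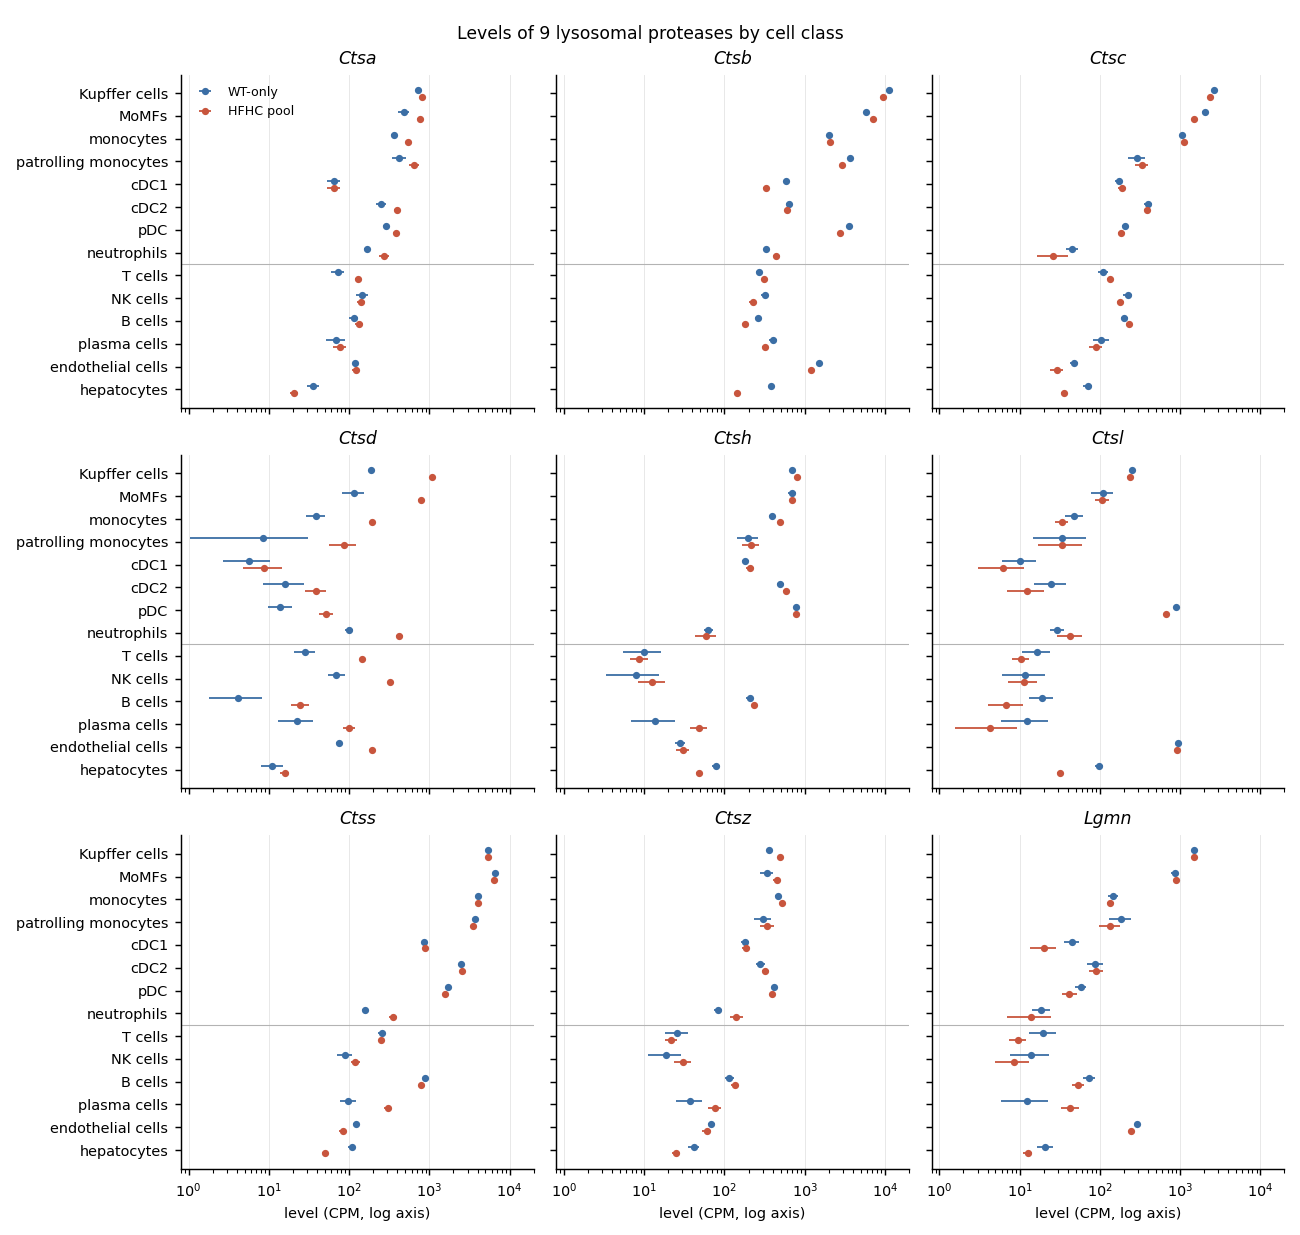
Level of each of the 9 genes by myeloid class (upper rows) and other class (lower rows) in CPM on a log axis, with 1 point per library and exact 95% Poisson intervals. Among the myeloid classes Lgmn spans from 1477 and 1490 CPM in KCs to 18.8 and 13.8 CPM in neutrophils, and Ctsl is highest among the myeloid classes in pDCs at 883 and 664 CPM, below endothelial cells at 953 and 904 CPM.

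The makeup of the sum also differed by class. Ctsb supplied 49.1% of the 9 genes' UMIs in WT-only KCs and 42.8% in pool KCs, with Ctss at 23.2% and 24.2%. Monocytes had the opposite order, with Ctss at 47.4% and 44.2% and Ctsb at 23.5% and 22.4%. In MoMFs the pair was closer to even, with Ctsb at 34.0% and Ctss at 38.9% in WT-only and 38.2% and 34.0% in the pool. cDC2 leaned on Ctss, at 52.7% and 51.4%. Ctsl was 11.2% and 9.76% of the sum in pDCs and at most 3.17% of it in any other myeloid class of at least 50 cells.

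**Figure D2:**
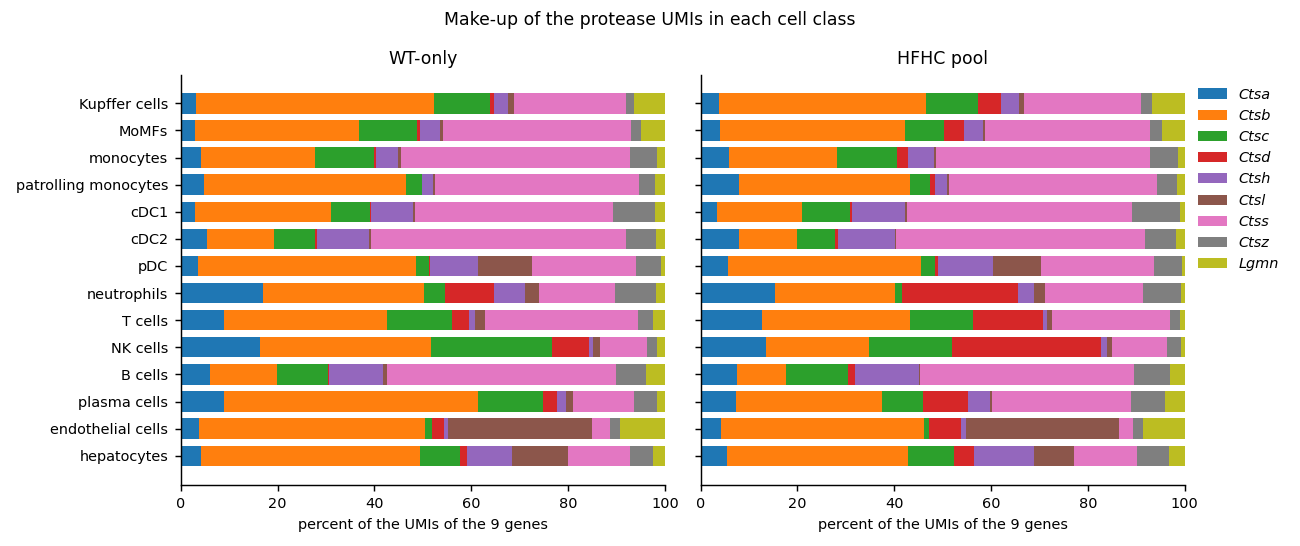
Share of each gene in the summed UMIs of the 9 genes, in percent, for the myeloid and other classes drawn and each library. Ctsb is the largest part in KCs (49.1% and 42.8%) and Ctss in monocytes (47.4% and 44.2%).

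Ctsb, a cysteine protease that acts both inside chains and from their carboxyl end, was highest in KCs. It stood at 11262 CPM (11206 to 11319) in WT-only KCs and 9423 CPM (9322 to 9526) in pool KCs. MoMFs had 5781 and 7097 CPM, patrolling monocytes 3716 and 2918, pDCs 3544 and 2726, monocytes 2012 and 2047, cDC2 640 and 609, cDC1 593 and 334 and neutrophils 333 and 443. KCs exceeded MoMFs and MoMFs exceeded every other myeloid class beyond counting error in both libraries, while patrolling monocytes and pDCs did not differ in either.

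Ctsl, an endopeptidase of the same family, followed another order. pDCs, the interferon-secreting dendritic cells, had 883 CPM (848 to 919) in WT-only and 664 CPM (630 to 700) in the pool, against 251 and 237 in KCs, 109 and 106 in MoMFs, 48.1 and 33.7 in monocytes and 24.7 and 12.3 in cDC2. Among the 9 genes, with the classes as clustered, it alone was at least 2-fold higher in 1 myeloid class than in every other, 3.51-fold over KCs in WT-only (log2 1.81, 1.74 to 1.89) and 2.81-fold in the pool (log2 1.49, 1.36 to 1.61). Of all genes compared in this way, 17.2% passed 2-fold in WT-only and 16.3% in the pool, so 1 of 9 is not more than the background. In WT-only the count was 2 to 4 under several other settings, where Ctsb, at log2 0.96 over MoMFs here, and in some Lgmn and Ctsc, passed 2-fold in KCs. Against cDC2, the log2 ratio of pDCs was 5.09 (4.53 to 5.88) and 5.66 (5.02 to 6.59), where 14.6% and 11.2% of all genes were at least 2-fold higher. Outside the myeloid classes, endothelial cells reached 953 and 904 CPM. The 8 endothelial markers summed to 613 and 388 CPM in pDCs, against 20233 and 14542 in endothelial cells and 980 and 860 in KCs, and their part in the pDC level was not tested.

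Ctss, an endopeptidase that stays active at neutral pH and is known for cleaving the invariant chain, was highest in MoMFs. It stood at 6621 CPM (6361 to 6889) in WT-only MoMFs and 6320 CPM (6160 to 6484) in those of the pool, then at 5322 and 5334 in KCs, 4058 and 4043 in monocytes, 3746 and 3541 in patrolling monocytes, 2449 and 2589 in cDC2, 1691 and 1590 in pDCs, 867 and 885 in cDC1 and 158 and 357 in neutrophils. The order of the 8 classes was the same in both libraries and each neighbour differed beyond counting error, but the step from the first class to the second was small, 1.24-fold in WT-only and 1.19-fold in the pool. B cells, which also present antigen, had 892 and 792 CPM.

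Ctsc, the dipeptidyl peptidase that activates granule serine proteases, was also highest in KCs, at 2650 CPM (2623 to 2678) and 2360 CPM (2309 to 2411). MoMFs had 2030 and 1487, monocytes 1044 and 1131, cDC2 398 and 387, patrolling monocytes 288 and 333, pDCs 208 and 185, cDC1 171 and 189 and neutrophils 45.1 and 26.4. Ctsc separated the monocyte classes: monocytes exceeded patrolling monocytes by log2 1.84 (1.5 to 2.23) in WT-only and 1.75 (1.49 to 2.05) in the pool, while Ctsb went the other way at -0.89 (-1.0 to -0.77) and -0.51 (-0.61 to -0.41). Of the members compared between monocytes and patrolling monocytes, 1 of 7 was at least 2-fold higher in monocytes in WT-only, where 10.4% of all genes were, and in the pool Ctsc, Ctsd and Ctsh were, 3 of 9, beside 7.3%.

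Ctsh, an aminopeptidase, and Ctsz, a carboxypeptidase also called cathepsin X, differed little between their leading classes. Ctsh stood at 779 and 775 CPM in pDCs, 687 and 799 in KCs, 696 and 701 in MoMFs, 500 and 587 in cDC2, 387 and 499 in monocytes, 195 and 214 in patrolling monocytes, 183 and 208 in cDC1 and 63.3 and 59.1 in neutrophils. Its highest class was pDCs in WT-only and KCs in the pool, and in each library the highest class and its neighbour did not differ beyond counting error. Among the ranked classes Ctsz was highest in monocytes, 468 CPM (433 to 506) and 524 CPM (499 to 549), with pDCs at 411 and 397, KCs at 355 and 489, MoMFs at 337 and 448, patrolling monocytes at 301 and 342, cDC2 at 281 and 322, cDC1 at 181 and 186 and neutrophils at 83.2 and 141. With KC UMIs taken out by Clec4f, mature dendritic cells, too few to rank, held 495 and 444 CPM of Ctsz, beside 471 and 524 in monocytes. Ctsz was the only one of the 9 genes lower in KCs than in monocytes in both libraries, by log2 -0.40 (-0.52 to -0.28) and -0.10 (-0.20 to -0.00), and neither ratio reached 2-fold. Without the Ly6i-led monocyte cluster the direction turned, to 0.14 and 0.48, and with classes from marker UMIs it turned in the pool, to 0.21. From its highest to its lowest class, basophils in WT-only and neutrophils in the pool, Ctsz spanned 6.11-fold and 3.69-fold. This was the narrowest range of the 9 genes in each library.

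Lgmn, the asparaginyl endopeptidase, gave the widest contrast between KCs and monocytes. It stood at 1477 CPM (1457 to 1498) and 1490 CPM (1450 to 1531) in KCs and 856 and 892 in MoMFs. Patrolling monocytes had 182 and 134, monocytes 148 and 135, cDC2 87.6 and 90.4, pDCs 58.1 and 41.6, cDC1 44.8 and 20 and neutrophils 18.8 and 13.8. Both macrophage classes thus lay above every other myeloid class, beyond counting error, in both libraries. Monocytes and patrolling monocytes did not differ for Lgmn in either library.

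Ctsa, the carboxypeptidase that also protects neuraminidase and β-galactosidase in the lysosome, ranged from 724 and 812 CPM in KCs over MoMFs at 481 and 758, patrolling monocytes at 424 and 650, monocytes at 365 and 538, pDCs at 287 and 379 and cDC2 at 250 and 397 to neutrophils at 169 and 272. cDC1 stood at the bottom with 64.1 and 64.4 CPM, below neutrophils. Ctsd, the main aspartic protease of lysosomes, was at 188 CPM in WT-only KCs and 1076 CPM in pool KCs, and its order put neutrophils high: MoMFs had 114 and 785, neutrophils 100 and 424, monocytes 38.7 and 196, patrolling monocytes 8.49 and 85.5, pDCs 13.9 and 52.0, cDC2 16 and 38.6 and cDC1 5.68 and 8.75. In WT-only basophils stood second, and the lead of KCs over them lay within counting error, at log2 0.44 (-0.16 to 1.30). KCs exceeded MoMFs there by log2 0.68 (0.28 to 1.19) and neutrophils by 0.90 (0.74 to 1.07). MoMFs and neutrophils did not differ beyond counting error in WT-only. In the pool KCs, MoMFs and neutrophils each differed from the next.

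Of the 9 genes, 8 had the same highest myeloid class in both libraries, and 5 of them (Ctsa, Ctsb, Ctsc, Ctsd and Lgmn) were highest in KCs, while Ctsh was the exception. For Ctsa in the pool the lead of KCs over MoMFs lay within counting error, at log2 0.10 (-0.02 to 0.22). The same held for Ctsd in WT-only and the lead of KCs over basophils, at 0.44 (-0.16 to 1.30). Of the neighbouring pairs in these orders, 31 of 72 in WT-only and 17 of 63 in the pool lay within counting error. Basophils were ranked in WT-only alone, so the 2 counts are not of the same classes.

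Between KCs and monocytes, 5 of 9 genes were at least 2-fold higher in KCs in each library, namely Ctsb, Ctsc, Ctsd, Ctsl and Lgmn, and none was 2-fold lower. Over all genes compared, 13.5% were at least 2-fold higher in KCs in WT-only and 11.5% in the pool, and 8.91% and 10.5% were at least 2-fold lower. The median log2 ratio of the 9 was 1.34 and 1.06, beside 0.00 and -0.08 over all genes. Lgmn led at 9.93-fold in WT-only (log2 3.31, 3.12 to 3.53) and 10.98-fold in the pool (log2 3.46, 3.32 to 3.6). Ctsb was 5.59-fold and 4.60-fold higher, Ctsl 5.15-fold and 6.96-fold, Ctsd 4.76-fold and 5.50-fold and Ctsc 2.54-fold and 2.09-fold. Ctss was higher in KCs by log2 0.39 (0.35 to 0.43) and 0.40 (0.37 to 0.43), the smallest difference among the genes higher in KCs. Leaving out the monocyte cluster led by Ly6i, an alternative chosen after seeing the data, widened the pool ratios to log2 4.39 for Lgmn and 3.92 for Ctsd.

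**Figure D3:**
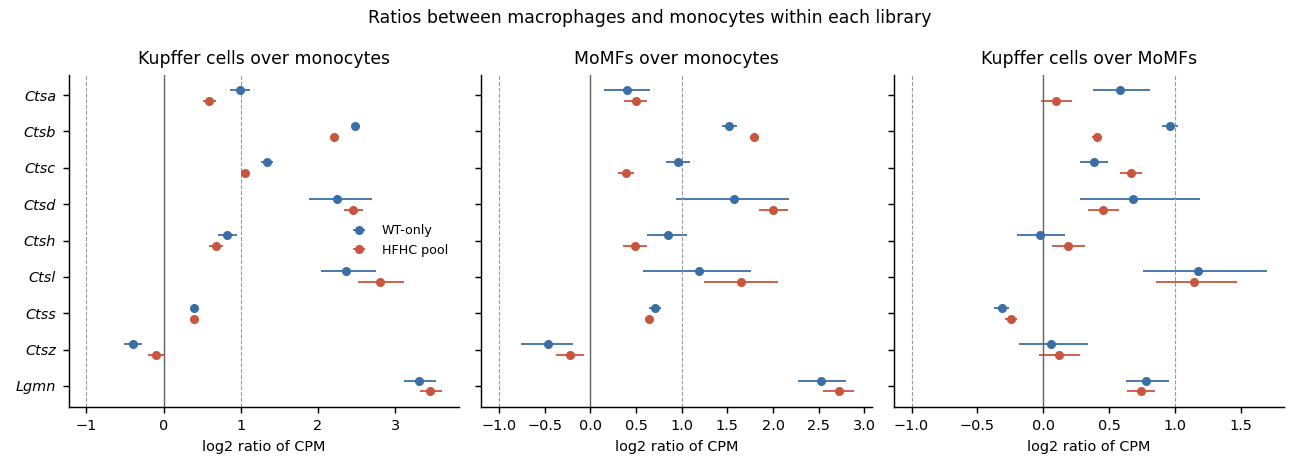
Log2 ratio of KCs over monocytes, KCs over MoMFs and MoMFs over monocytes for each of the 9 genes in both libraries, with exact 95% intervals. Lgmn lies at 3.31 and 3.46 for KCs over monocytes, while Ctss stays at 0.39 and 0.40.

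MoMFs lay between monocytes and KCs for most of these genes. Against MoMFs, 1 of 9 genes passed 2-fold in KCs, Ctsl at log2 1.17 (0.76 to 1.70) and 1.15 (0.86 to 1.47), beside 5.78% and 5.83% of all genes. Ctsb was at 0.96 (0.90 to 1.02) and 0.41 (0.37 to 0.45) and Lgmn at 0.78 (0.63 to 0.95) and 0.74 (0.64 to 0.85), and Ctss was the gene that leaned to MoMFs, at -0.32 (-0.37 to -0.26) and -0.25 (-0.29 to -0.20). Against monocytes, MoMFs were at least 2-fold higher for Ctsb, Ctsl and Lgmn in WT-only, 3 of 8 genes with enough UMIs, and for Ctsb, Ctsd, Ctsl and Lgmn in the pool, 4 of 9, where 7.35% and 6.1% of all genes were. Lgmn was higher in MoMFs than in monocytes by log2 2.53 (2.27 to 2.79) and 2.72 (2.55 to 2.89) and Ctsb by 1.52 (1.44 to 1.60) and 1.79 (1.74 to 1.84). Taking KC UMIs out of WT-only MoMFs by Clec4f put KCs over MoMFs at log2 1.31 for Ctsb and 1.04 for Lgmn, so that 3 genes passed 2-fold.

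Among dendritic cells, cDC1 were low for most of the 9 genes. Against cDC2, the class that presents to helper T cells, cDC1 were at least 2-fold lower for 4 of 7 genes in WT-only and 5 of 7 in the pool, beside 5.65% and 6.02% of all genes. Ctsa was lower by log2 -1.96 (-2.31 to -1.63) and -2.61 (-2.95 to -2.31), Ctss by -1.5 (-1.60 to -1.40) and -1.55 (-1.64 to -1.46), Ctsh by -1.45 (-1.67 to -1.24) and -1.49 (-1.69 to -1.31) and Ctsc by -1.22 and -1.03, and Lgmn joined them in the pool at -2.15 (-2.79 to -1.60). In WT-only, Clec4f stood at 2.01% of its KC level in cDC1, a share worth 29.7 of their 44.8 CPM of Lgmn. Without it Lgmn was at 15.5 CPM in cDC1 and 67.8 in cDC2 in WT-only, beside 15.5 and 83.3 in the pool. Against monocytes, cDC2 were lower for Ctsb, at log2 -1.65 and -1.75, for Ctsc, at -1.39 and -1.54, and in the pool for Ctsd, at -2.31 (-2.80 to -1.91), and Ctsl, at -1.37 (-2.34 to -0.67). Ctsa, Ctss, Ctsz and Lgmn were lower by less than 2-fold in each library, whereas Ctsh was higher in cDC2, at 0.37 (0.18 to 0.56) and 0.24 (0.11 to 0.36). The part of the monocyte markers in pool cDC2 in these ratios was not tested.

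Neutrophils were below monocytes for most of the 9 genes. Monocytes were at least 2-fold higher for 7 of 9 genes in WT-only and 6 of 9 in the pool, beside 27.0% and 32.4% of all genes. Ctsd was lower in monocytes beyond counting error, by log2 -1.35 (-1.82 to -0.95) and -1.12 (-1.31 to -0.92), where 19.3% and 15.8% of all genes were at least 2-fold lower. Clec4f stood at 110 CPM in WT-only neutrophils, 1.79% of its KC level, and the same share of KC levels would amount to 201 of their 333 CPM of Ctsb, all of their Ctsc and Lgmn and 3.35 of their 100 CPM of Ctsd. Above that share, 6 of the 9 genes stood at 50 CPM or more in neutrophils of each library, with Ctsa at 159 and 269 CPM and Ctsb at 134 and 399.

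Cells of each class were also compared 1 by 1 after thinning each to 2000 UMIs, which left 2135 and 325 KCs, 70 and 111 MoMFs and 309 and 498 monocytes, out of classes whose median depths were 4552 and 10091, 2999.5 and 7652, and 3675 and 6373.5 UMIs. Ctsb and Ctss were found in 99.9% or more of KCs in both libraries. Lgmn was found in 92.6% (91.4 to 93.6) and 92.9% (89.6 to 95.5) of KCs and in 84.3% (73.6 to 91.9) and 76.6% (67.6 to 84.1) of MoMFs. It was found in 15.9% (12.0 to 20.4) and 20.1% (16.6 to 23.9) of monocytes, where B cells gave 15.4% (9.9 to 22.4) and 9.8% (7.7 to 12.3) and T cells 2.5% and 2.2%. The monocyte share in WT-only was thus not above that of B cells. Those B cells had a median depth of 1303 UMIs, so that most were too shallow to enter the share. Over all cells of each class Lgmn was higher in WT-only monocytes, at 148 CPM, than in B cells, at 73.1. Without thinning, Lgmn was in 92.4% and 95.3% of KCs and 29.3% and 37.3% of monocytes. Ctsl was found in 74.9% (71.6 to 78.1) and 64.2% (58.7 to 69.4) of pDCs and 39.3% (37.3 to 41.5) and 37.5% (32.3 to 43.1) of KCs.

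Counting which of Ctsb and Ctss had more UMIs in a cell split some classes and not others, a description chosen after the levels were seen. Ctsb led in 93.0% (91.8 to 94.02) of WT-only KCs and 84.9% (80.6 to 88.6) of pool KCs. It led in 14.6% (10.8 to 19.0) and 13.5% (10.6 to 16.8) of monocytes, in 30% (19.6 to 42.1) and 50.5% (40.8 to 60.1) of MoMFs, in 79.8% (76.7 to 82.7) and 66.7% (61.2 to 71.8) of pDCs and in 4.4% (1.9 to 8.5) and 8.4% (4.7 to 13.7) of cDC2. In patrolling monocytes Ctsb led in 41.9% and 43.8% and Ctss in 38.7% and 50.7%. Ctss led in 52.8% and 60% of cDC1. Equal counts were found in 57.0% and 44.7% of the neutrophils deep enough for thinning, only 93 of 3144 and 208 of 341. In MoMFs Ctss led in 64.3% (51.9 to 75.4) in WT-only and 45.9% (36.4 to 55.7) in the pool. KCs and pDCs were thus mostly Ctsb cells and monocytes and cDC2 mostly Ctss cells. Patrolling monocytes and pool MoMFs held both kinds, and WT-only MoMFs leaned to Ctss.

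**Figure D4:**
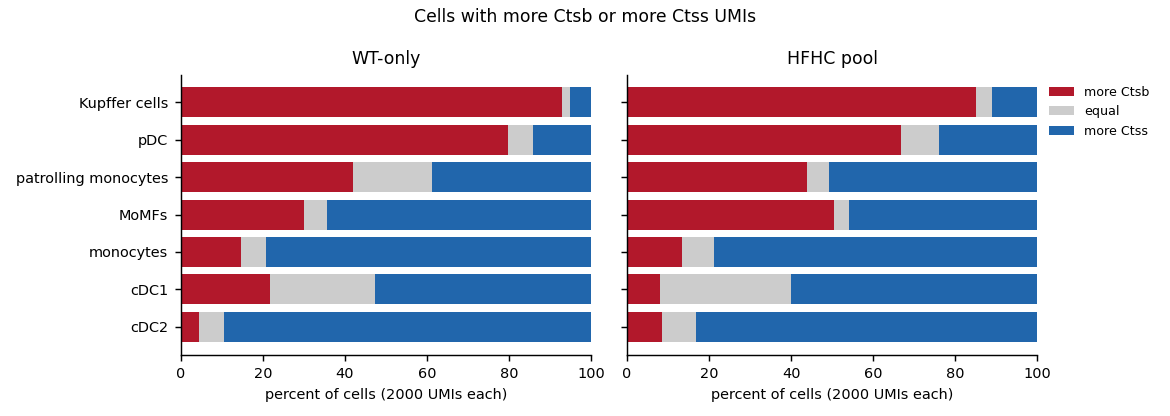
Percent of cells with more UMIs of Ctsb than of Ctss, with equal counts, and the reverse, at 2000 UMIs per cell. The classes drawn are KCs, pDCs, patrolling monocytes, MoMFs, monocytes, cDC1 and cDC2. Ctsb leads in 93.0% and 84.9% of KCs and in 14.6% and 13.5% of monocytes.

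Within KCs the counts of Ctsb were uneven, with a median of 22 (quartiles 16 and 27, range 2 to 66) in WT-only and 18 (14 and 23, range 3 to 48) in the pool, and a variance of 2.73 and 2.78 times the mean. Pool MoMFs were the most uneven for Ctsb, with a median of 12, a range of 1 to 43 and a variance of 4.99 times the mean. In those 111 cells Ctsb ran with Ctsd at a Spearman rho of 0.46, and across the other pairs and classes rho lay between -0.15 and 0.29. The cells of each class and library share 1 capture.

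KCs fell into 3 clusters. Further clusters with KC markers also held markers of other cell types and were left out as mixed, the largest with 352 and 103 cells. The largest, 1972 and 312 cells, and a shallow one, 649 and 56 cells with median depths of 1460 and 2114.5 UMIs, had 11305 and 11683 CPM of Ctsb and 5312 and 5748 CPM of Ctss in WT-only, and 9423 and 10131 CPM of Ctsb in the pool, beyond their intervals. They also differed beyond their intervals for Ctsd in the pool, 1057 (1022 to 1094) against 1384 CPM (1245 to 1534), for Ctsc, 2680 against 2364 in WT-only and 2401 against 1986 in the pool, and for Ctsa in WT-only, 736 against 639. A small cluster of 66 and 13 cells, led by the scavenger receptor Marco and the interferon-induced chemokines Cxcl10 and Cxcl9, also held 262 and 972 CPM of Mki67, a proliferation marker. It was lower than the largest for Ctsb at 8745 and 6861 CPM, for Ctss at 4225 and 3889 and for Lgmn at 1149 and 1042. Its Ctsl was at 141 CPM in WT-only and at 111 in the pool, where it rested on 8 UMIs. Ctsz was higher there in WT-only, 467 CPM (404 to 538) against 350 (339 to 361). Monocytes fell into a cluster led by Ly6i, of 153 and 292 cells, with 7975 and 7187 CPM of the MHC class II gene H2-Aa, and another of 192 and 218 cells. The other held 1335 and 962 CPM of H2-Aa and more of the monocyte gene Ly6c2, 2406 and 2199 CPM against 1375 and 999. The first had more Ctsz, 608 and 636 CPM against 320 and 350, and more Ctss, 4667 and 4541 against 3412 and 3272. Ctsd differed in the same direction, 52.4 and 277 CPM against 24.1 and 70.4.

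Between the libraries, Ctsd stood apart. It was 5.74-fold higher in pool KCs than in WT-only KCs (log2 2.52, 2.45 to 2.59), 6.72-fold in MoMFs (2.75, 2.33 to 3.27) and 4.97-fold in monocytes (2.31, 1.93 to 2.77). It was the 1 gene of 9 that reached 2-fold in each of these classes, where 7.46%, 9.59% and 6.07% of all genes differed by 2-fold either way, and 99.6%, 99.5% and 99.5% of all genes had a lower ratio. The higher level was also measured outside macrophages. pDCs gave log2 1.87 (1.35 to 2.48), neutrophils 2.08 (1.86 to 2.30), T cells 2.34 (1.93 to 2.85), NK cells 2.21 (1.87 to 2.60), plasma cells 2.10 (1.45 to 2.96), endothelial cells 1.36 (1.19 to 1.53) and hepatocytes 0.48 (0.02 to 1.04). Among cells thinned to 2000 UMIs, Ctsd was found in 28.4% (26.5 to 30.4) of WT-only KCs and 82.8% (78.2 to 86.7) of pool KCs, against 2.1% (0.4 to 6.0) and 4.8% (3.4 to 6.7) of B cells. Without thinning the KC shares were 49.1% and 94.5%. Without an upper limit on genes per cell, with classes from marker UMIs, the MoMF ratio was log2 4.09, and without the Ly6i cluster the monocyte ratio was 1.48.

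**Figure D5:**
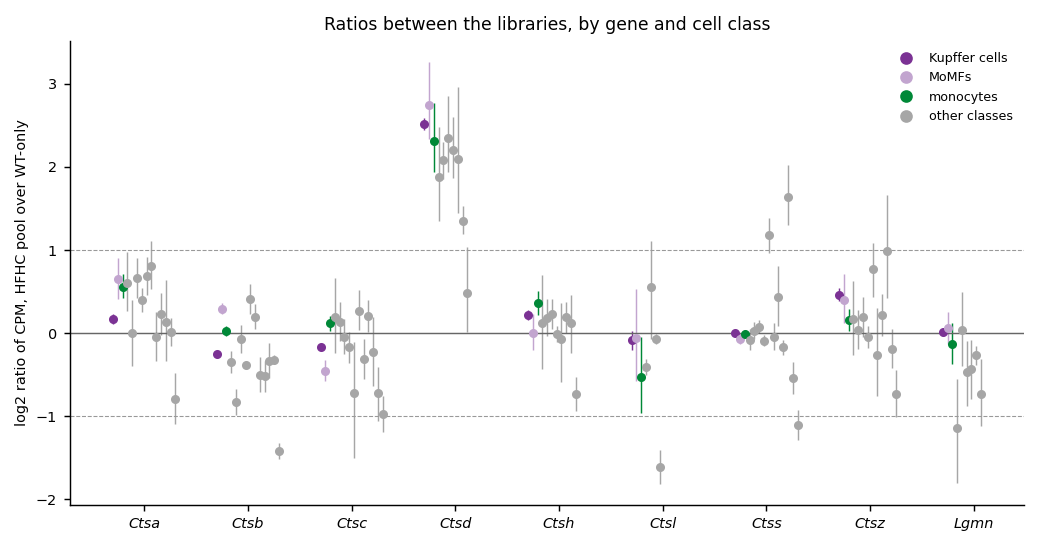
Log2 ratio of the HFHC pool over WT-only for each of the 9 genes in KCs, MoMFs and monocytes (colours) and in other classes with enough UMIs (grey), with exact 95% intervals. In KCs, MoMFs and monocytes Ctsd lies at 2.52, 2.75 and 2.31 and the other 8 genes between -0.52 and 0.65.

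The other 8 genes stayed within 2-fold in these 3 classes as clustered. With classes from marker UMIs and no upper limit on genes, Ctsl in monocytes (log2 -1.07) and Ctsb in MoMFs (1.20) passed it. Ctsa was higher in the pool by log2 0.17 (0.10 to 0.23) in KCs, 0.65 (0.42 to 0.90) in MoMFs and 0.56 (0.42 to 0.71) in monocytes, and Ctsz by 0.46 (0.38 to 0.54), 0.40 (0.12 to 0.71) and 0.16 (0.03 to 0.29). Ctss differed by 0.00, -0.07 and -0.01 and Lgmn by 0.01, 0.06 and -0.13. The medians over the 9 genes were 0.01, 0.06 and 0.12, beside -0.02, -0.03 and 0.01 over all genes. Ctss was 2-fold higher in pool neutrophils, at 1.18 (0.96 to 1.39), or 63.9 CPM in WT-only and 333 in the pool without the Clec4f share, and Lgmn lower in pool cDC1, at -1.14 (-1.80 to -0.55), where 13.4% and 5.74% of all genes differed by 2-fold either way. Without the Clec4f share Lgmn in cDC1 was at 15.5 CPM in each library. Outside the myeloid classes, Ctss was at log2 1.64 (1.31 to 2.02) in plasma cells, and in hepatocytes Ctsb was at -1.42 (-1.52 to -1.32), Ctsl at -1.61 (-1.81 to -1.41) and Ctss at -1.11 (-1.29 to -0.93). Without the Clec4f share hepatocyte Ctss was at 20.7 CPM in WT-only and 14.3 in the pool, less than 2-fold apart.

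Several measures moved with Ctsd between the libraries. Of 10 genes of dissociation and stress such as Egr1 and Fos, 8 were at least 2-fold higher in pool KCs, 8 in pool MoMFs and 9 in pool monocytes, with medians of log2 1.84, 1.89 and 1.83, where 3.65%, 5.11% and 3.29% of all genes were at least 2-fold higher. In KCs 1 gene in each of 5 other lysosomal lists passed 2-fold, 1 of 14 glycosidases, 1 of 12 lipid genes, 1 of 12 membrane genes, 1 of 11 sorting genes and 1 of 5 of the MiT list, and none of 14 vacuolar ATPase subunits, 6 other proteases or 6 sulfatases did. Pld3, a lysosomal exonuclease, was higher by log2 2.75, the β-hexosaminidase subunit Hexa by 1.62, the membrane protein Cd63 by 4.85, the adaptor subunit Ap1s1 by 1.44 and Tfeb by 1.68. Hexa was also higher in monocytes (1.76), MoMFs (1.5), B cells (1.38) and T cells (1.5), and Pld3 in monocytes (3.19), MoMFs (2.85), B cells (2.19) and T cells (2.33). Of 8 MHC class II genes in KCs, H2-Eb1 at 1.16, Ciita at 1.15 and Cd74 at 1.14 passed 2-fold. Both tables' headers name the same pipeline, genome and annotation. The part of stress, depth, capture, diet and genotype in the Ctsd ratio was not tested.

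The rest of the lysosome did not move as one between KCs and monocytes, where 13.5% of all genes in WT-only and 11.5% in the pool were at least 2-fold higher in KCs. Of the other lysosomal proteases, 3 of 6 were at least 2-fold higher in KCs in each library, led by the carboxypeptidase Cpq at log2 3.11 and 3.96 and Tpp1 at 1.86 and 1.55, and Prcp was lower in the pool at -1.04. Of the glycosidases, 6 of 14 and 4 of 14 were higher, among them Aga at 2.20 and 1.46, Glb1 at 1.73 and 1.43 and Man2b1 at 1.68 and 1.72. Lipid enzymes went both ways: Pld3 at 2.59 and 2.15 and Pla2g15 at 2.21 and 3.24 were higher, and Naaa at -2.55 and -2.23 and the activator Gm2a at -1.49 and -1.38 were lower. Of 14 subunits of the proton pump that acidifies the lysosome, none reached 2-fold in either library, with medians of 0.33 and 0.39. The sorting list had 4 of 11 and 3 of 12 higher, with Grn, the progranulin precursor, at 1.74 and 2.03 first. Gnptab, which builds the mannose 6-phosphate tag, was lower at -1.43 and -1.05, and the receptor Sort1 was lower in the pool at -3.73. Of the sulfatases, Arsb was lower in WT-only at -1.27 and Ids in the pool at -1.19. Of the membrane proteins, 3 of 11 and 2 of 12 were higher, the latter near the share of all genes, led by Scarb2 at 1.42 and 1.76 and Slc15a3 at 1.27 and 1.53.

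Other cathepsins were split between the classes. Ctsf, a cysteine protease, stood at 120 and 76.0 CPM in KCs and at 0.729 and 1.52 CPM in monocytes, log2 ratios of 6.37 (4.89 to 12.67) and 5.39 (4.40 to 7.28) that rest on few monocyte UMIs. Napsa, an aspartic protease, was at 0.822 and 0.857 CPM in KCs and 197 and 212 in monocytes, with log2 ratios of -7.78 (-8.92 to -7.04) and -7.54 (-10.23 to -6.40). The inhibitors Cst3 and Cstb, the members of the cystatin and stefin list with enough UMIs, stayed within 2-fold. Of 8 MHC class II genes, 2 were at least 2-fold lower in KCs in WT-only, H2-DMb2 at -1.73 and Ciita at -1.77, and 1 was in the pool, H2-DMb2 at -1.01, beside 8.91% and 10.5% of all genes. Of the MiT family, Tfec was higher in KCs at 1.21 and 1.89, and Tfeb lower in WT-only at -1.26.

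Over the 30 pairs of class and library with at least 50 cells, the levels of the 9 genes, on the log2(CPM + 10) scale, formed a few groups. These points share libraries and RNA between classes and are given as a description. Ctsh and Ctsz ran together at a Pearson r of 0.93, Ctss and Ctsz at 0.93, Ctsh and Ctss at 0.87 and Ctsb and Lgmn at 0.86. Ctsd and Ctsh were at 0.01 and Ctsc and Ctsl at 0.04. Among 11666 genes searched, the profile of Ctsb was most like those of Tmem86a (0.92), Pltp (0.91), which overlaps Ctsa, and Cln8 (0.91). Lgmn was most like Renbp (0.93), Slc7a7 (0.92) and Adam9 (0.91), and Ctsc like Pde8b, Fcgr1 (both 0.88) and Axl (0.87). Ctsz was most like Pld4 (0.94), Clec12a (0.94) and Ctsh, Ctss like Ctsz, Ly86 (0.92) and Cybb (0.92), and Ctsh like Ctsz, Ly86 (0.92) and Pld4 (0.90). Ctsa was most like Zeb2os (0.92), Zeb2 (0.90) and Gngt2 (0.89). Ctsl was most like Cdh5 (0.87), which is on the endothelial marker list, Itsn1 (0.85) and Kank2 (0.83). Ctsd, with the weakest likeness of the 9, was most like Pld3 (0.75), Pofut2 (0.74) and Gla (0.73).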

How the data were processed

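The deposited tables hold raw UMI counts per cell and gene, which the authors made with the BD Rhapsody WTA Analysis Pipeline 1.10.1 on GRCm38 with GENCODE vM19, after the pipeline's correction of UMI errors. Whether counting used strand is not given in the sources used here. The study analysed the counts in R 4.0.5 with Seurat 4.2.3, and its filters were applied here (200 to 4000 genes and at most 25% mitochondrial UMIs). Cells were normalized with sctransform 0.4.2, integrated and clustered in Seurat 5.3.0 under R 4.3.3 (4000 variable genes, of which 3995 were used once the 9 genes had been left out, 30 principal components, 20 neighbours, and resolution 0.8). Clusters of monocytes, macrophages and conventional or mature dendritic cells were then clustered again at resolution 0.5. Clusters were named from marker lists. Clusters of mixed markers, 848 and 191 cells, and unnamed clusters, 5821 and 3539 cells, were left out of the classes. Scrublet in Scanpy 1.11.5 marked 8.13% and 1.95% of the cells as doublets, which were not removed, except as an alternative.

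UMIs were summed per class and library and divided by the class total (CPM). Ratios had 1 UMI added to both sums, were restricted to genes whose UMIs in both groups summed to 100 or more, and were counted at 2-fold. Poisson and binomial intervals were exact (95%) and cover counting error only. The table of WT-only was tied to its sample by elimination, since its header does not give the sample's title. With 1 library per group no p-value was computed. The ratio script was tested on simulated data. Named genes were the 9 genes, the 3 genes most like each, and, of each other list, the 2 highest and 2 lowest ratios past 2-fold, with further genes where a result turned on them. A gene that this rule names is not reported here. The members and lists were chosen with earlier results of these data known. Python 3.11.15, NumPy 2.4.6, pandas 2.3.3, SciPy 1.17.1 and matplotlib 3.10.9 were used.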

Additional observations from a re-analysis of the deposited data

Results flagged for a closer look

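Ctsb and Ctsc each differed between the libraries in opposite directions in different classes. Ctsb was lower in the HFHC pool than in WT-only in KCs, at log2 -0.26 (-0.27 to -0.24), and higher in MoMFs, at 0.30 (0.23 to 0.37). Ctsc was lower in KCs, at -0.17 (-0.20 to -0.13), and in MoMFs, at -0.45 (-0.58 to -0.32), and higher in monocytes, at 0.12 (0.03 to 0.21). With 1 library per group the difference between classes was not tested. The KC markers fell from 4735 CPM in WT-only MoMFs to 2408 CPM in those of the pool, as Ctsc did there, while Ctsb rose. After KC UMIs were taken out by Clec4f, a step chosen after seeing the data, the MoMF ratio was 0.63 for Ctsb and -0.37 for Ctsc, with the same directions. With classes from marker UMIs the Ctsc ratio in MoMFs was -0.03, and with these and no upper limit on genes it was 0.02.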

How the results depend on the processing

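Ctsl was at least 2-fold higher in pDCs than in every other myeloid class under every alternative, at log2 1.57 to 1.96 in WT-only and 1.22 to 1.80 in the pool. The count of genes that were 2-fold higher in 1 myeloid class, 1 of 9 in WT-only, became 2 with the 9 genes kept for clustering (Ctsb at log2 1.12), with resolution 1.0 then 0.3 (1.04), with the mean of per-cell CPM (1.17) and with scaling by the median of gene ratios (1.09). It became 3 after taking out KC UMIs by Clec4f, an alternative chosen after seeing the data (Ctsb 1.31 and Lgmn 1.04), and 4 with classes from marker UMIs, with or without the upper limit on genes (Ctsb 1.48 and 1.47, Lgmn 1.58 in both and Ctsc 1.01 in both). In the pool the count was 1, and 2 with classes from marker UMIs (Lgmn 1.18). Between the libraries, 1 gene passed 2-fold in KCs throughout. Without the upper limit on genes and with classes from marker UMIs, 2 did in monocytes (Ctsl at -1.07) and 2 in MoMFs (Ctsb at 1.20). Dropping the limit raised the pool KCs defined by marker UMIs from 479 to 1051 cells. The Ctsd ratio of the pool over WT-only ranged from log2 2.44 to 2.81 in KCs, 2.73 to 4.09 in MoMFs and 1.48 to 2.50 in monocytes.

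The count of genes 2-fold higher in KCs than in monocytes was 5 in the pool throughout and 5 or 6 in WT-only. No ratio past 2-fold changed sign. Smaller ratios did: Ctsz in KCs over monocytes turned from log2 -0.40 and -0.10 to 0.14 and 0.48 without the Ly6i cluster, and in the pool to 0.21 and 0.34 with classes from marker UMIs, with and without the upper limit on genes. The Ctsc ratio of the pool over WT-only in MoMFs went from -0.45 to -0.03 with classes from marker UMIs and to 0.02 with these and no upper limit on genes. Of other values, 172 of 756 levels and 85 of 108 shares moved by more than their counting interval. Of the ratios, 47 of 881 crossed 2-fold or changed sign while below it. The causes were not tested, apart from the shares, whose thinning sets how many UMIs a cell has. No paired analysis was possible because each group is 1 library. Depth limits the small classes, such as the 100 and 112 MoMFs, and genes under 100 UMIs in a comparison.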
